A study of Mus musculus with 9 samples.

Results

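The genes described here carry out the mitochondrial use of fatty acids, from the activation of the free acid through the carnitine shuttle to beta-oxidation, and were measured in the right ventricle of mice. A list of 34 genes was set by name and divided by step, and a gene was used where the array held a probe set assigned to it and to no other gene, the brightest being taken where there were more. This left 30 of the 34, among 18820 genes measured in all. Cpt1b, the muscle isoform of the controlling enzyme of the carnitine shuttle, Acsl3 and Acadvl were found only on probe sets that name several genes, and Acsl1 is not named in the annotation used, so these 4 were not analysed here. The study examined whether a diet changes the heart and skeletal muscle in pulmonary arterial hypertension induced by monocrotaline (MCT), a plant alkaloid whose metabolites injure the vessels of the lung. All animals were female C57BL/6 mice, 10 weeks old at the first injection according to the labels, with 1 array per mouse and 3 mice per group. The MCT + NI mice (numbers 615, 617 and 619) received 600 mg/kg MCT under the skin every week for 8 weeks and an isocaloric diet with more protein and leucine and with added fish oil and oligosaccharides, the nutritional intervention (NI). The MCT mice (640, 641 and 644) received the same injections and the control diet AIN-93M, and the sham mice (620, 624 and 625) received saline and AIN-93M. These 9 were chosen from larger groups as matched for disease severity. The diets began 1 week before the injections according to the methods and 2 weeks before according to the labels.

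The adult heart obtains most of its energy from fatty acids. A fatty acid is joined to coenzyme A, handed to carnitine by carnitine palmitoyltransferase 1, carried across the inner mitochondrial membrane and handed back to coenzyme A, after which a repeated cycle of dehydrogenation, hydration, dehydrogenation and thiolysis removes acetyl-CoA. Many genes of this pathway are known targets of the nuclear receptor PPARα, which responds to fatty acids, and of the estrogen-related receptors, and a lower expression of the pathway is well known from hypertrophied hearts.

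All values are log2 intensities of robust multi-array analysis (RMA), on which a difference of 1 is a factor of 2, and array medians were close to each other (4.77 to 4.79). Of the 30 members, the mean log2 value ran from 5.60 (Acot1) to 11.82 (Hadha). Differences were tested with limma over all 18820 genes, and a member was said to rise or fall where the Benjamini-Hochberg adjusted p over all these genes was under 0.05. Values of single mice are given in the order of their numbers. The tissue carried the transcripts of ventricular muscle: 14 of 15 ventricular cardiomyocyte markers were measured, the dimmest of them brighter than 83.0% of genes, and their median log2 fold change between MCT and sham mice was -0.03. Of these 14, 1 fell, Ryr2 (-0.17, adjusted p = 0.0234 in limma), and none rose. Without sham mouse 624 Ryr2 no longer passed (-0.17, 0.0678). The muscle is mixed with other cells, and in such tissue fewer cells of a type and less RNA per cell cannot be told apart. Between MCT and sham mice 5 of 9 fibroblast, 4 of 9 endothelial, 4 of 7 smooth muscle and 3 of 9 macrophage markers rose, and none of these fell. Of all genes 4.65% rose and 1.61% fell. The log2 fold change was below 0 in 2 fibroblast, 3 endothelial, 1 smooth muscle and 1 macrophage marker. The lowest endothelial value was -0.67. Atrial transcripts differed within and between groups: the mean log2 value of the 7 atrial markers was 9.09, 6.42 and 5.71 in MCT + NI mice, 5.62, 5.97 and 10.53 in MCT mice and 10.09, 10.90 and 10.82 in sham mice. Against sham mice all 7 had a log2 fold change below 0 in both groups, where 55.7% and 55.1% of all genes did. The medians were -3.30 in MCT + NI and -2.64 in MCT mice. The part of these cell markers in the results was not tested, except that the mean of the atrial markers was also added as a covariate. 1 sham mouse stood apart in the members. Mouse 624 was the lowest of the 3 sham mice in 26 of the 30 members, whereas it was the lowest in 28.3% of all genes and in 40.8% of the 534 genes at or above the median level of the members. For the members, calls gained or lost without this mouse and the larger shifts are therefore given beside the values of all mice. Since mouse 624 was picked out by its values in these same members, leaving it out raises the sham mean of most of them. Calls gained in this way are no independent support. For other genes only some of these changes are given. Without mouse 624, 3 fibroblast, 4 endothelial, 3 smooth muscle and 0 macrophage markers rose in MCT against sham mice. In that fit 3.4% of all genes rose.

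**Figure D1:**
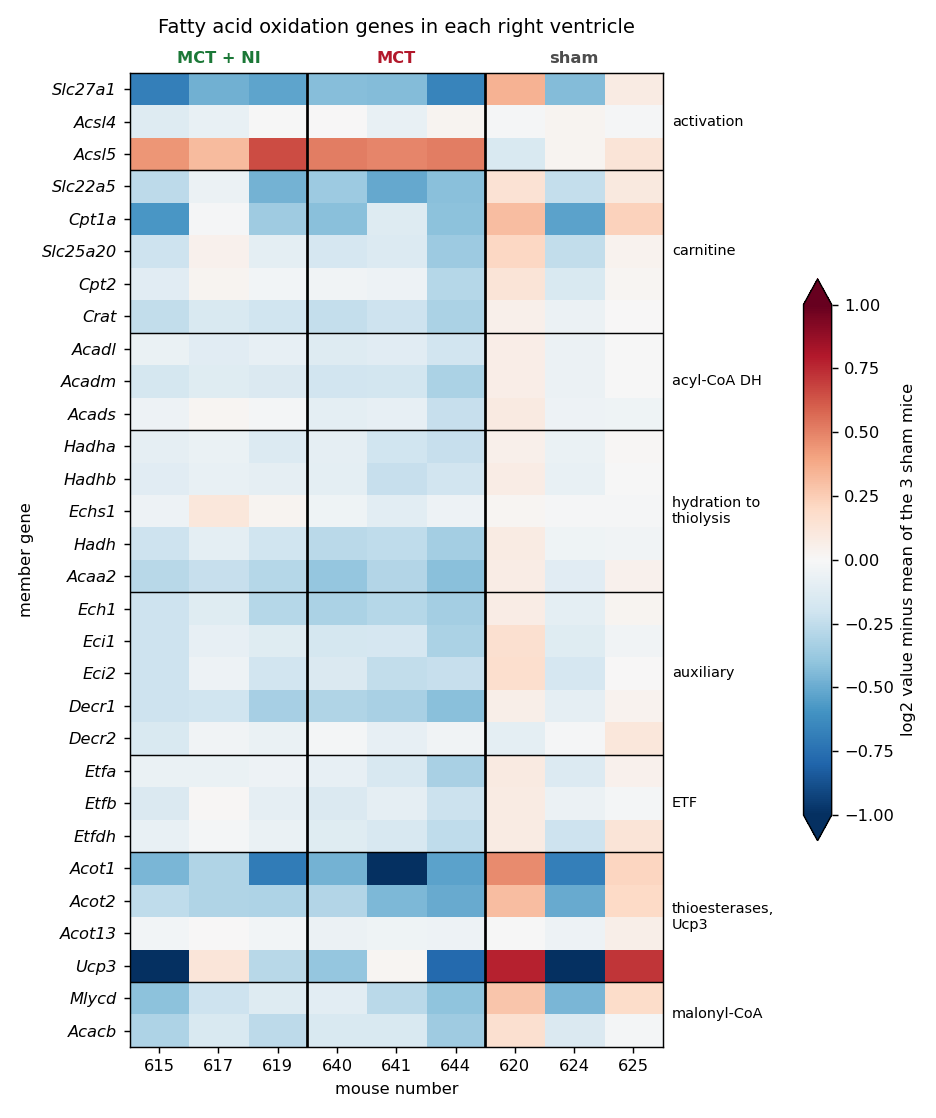
Log2 value of each of the 30 measured members (rows, by step) in each of the 9 right ventricles (columns, by group and mouse number), as the difference from the mean of the 3 sham mice. Blue is lower and red is higher, and the colours stop at a difference of 1 in both directions. Most rows are blue in MCT and MCT + NI mice, Acsl5 is red in all 6 of them, and sham mouse 624 is bluer than its neighbours, most of all in Ucp3, Acot1, Cpt1a and Acot2.

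Against sham mice, 6 of the 30 members fell in MCT mice, at log2 fold changes of -0.37 to -0.23: Crat of the carnitine system, Acadm, Hadh and Acaa2 of the central cycle, and Ech1 and Decr1, which handle unsaturated acids. 1 member rose, the acyl-CoA synthetase Acsl5, with a log2 fold change of 0.50. Of all genes tested, 1.61% fell and 4.65% rose, and of the 534 genes at or above the median level of the members 8.24% fell and 8.05% rose. The log2 fold change lay below 0 in 29 of the 30 members, against 55.1% of all genes and 63.7% of those 534, and its median was -0.22 over the members, -0.02 over all genes and -0.03 over the 534. At an unadjusted p under 0.05 in limma, 20 members were lower and 1 was higher, against 9.14% and 10.6% of all genes and 25.3% and 11.6% of the 534. In 15 members every MCT mouse lay below every sham mouse, a pattern seen in 10.2% of all genes and 28.3% of the 534.

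No member rose or fell between MCT + NI and MCT mice. The adjusted p was 1 for each of the 30, and 0% of all genes passed in limma. Hadh was the only member with an unadjusted p under 0.05 in limma (log2 fold change 0.12 ± 0.05 SE), where 1.59% of all genes and 7.68% of the 534 were higher and 1.3% and 1.5% were lower. The differences were small and mostly in 1 direction: the log2 fold change was above 0 in 24 of the 30 members, against 47.6% of all genes and 65.0% of the 534, and its median was 0.08, against -0.0046 over all genes and 0.02 over the 534. The log2 fold change was also above 0 in 26 of 27 genes of pyruvate dehydrogenase, its regulators and the tricarboxylic acid cycle. The same held for 14 of 14 ventricular cardiomyocyte markers, 31 of 54 further genes of fatty acid oxidation and 0 of 9 fibroblast markers. Of the 29 members with a lower mean in MCT than in sham mice, 24 had a higher mean in MCT + NI than in MCT mice. Of all genes with such a lower mean, 57% did. Without MCT mouse 644 the median of the members was 0.04 and 22 of them lay above 0. In 8 members every MCT + NI mouse lay above every MCT mouse, against 3.11% of all genes and 12.4% of the 534. They were Acadl, Acadm, Acads, Hadh, Acaa2, Etfa, Etfdh and Acot13. The largest of the 30 differences were those of Acot1 (0.21 ± 0.29) and Slc22a5 (0.16 ± 0.13) and neither passed the unadjusted threshold.

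Between MCT + NI and sham mice 3 members fell (Crat, Acaa2 and Decr1) and 1 rose (Acsl5). Of all genes 1.75% fell and 4.52% rose, and of the 534 genes 5.62% fell and 8.61% rose. The log2 fold change was below 0 in 28 of 30 members, against 55.7% of all genes and 56.6% of the 534, with a median of -0.14. This comparison shares its sham arrays with that of MCT against sham, and both comparisons with MCT share the MCT arrays, so the 3 sets of differences are not independent of each other. Crat, Hadh, Acaa2, Ech1 and Decr1 passed between MCT and sham mice with each mouse left out in turn. In the comparison of MCT + NI with sham none of the 4 calls passed without sham mouse 620, without MCT + NI mouse 615 or without MCT + NI mouse 619. Without sham mouse 625, 1 passed. Without sham mouse 624, 6 members fell and none rose. In that fit 0.972% of all genes fell and 3.21% rose, and of the 534 genes 24 fell and 41 rose.

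**Figure D2:**
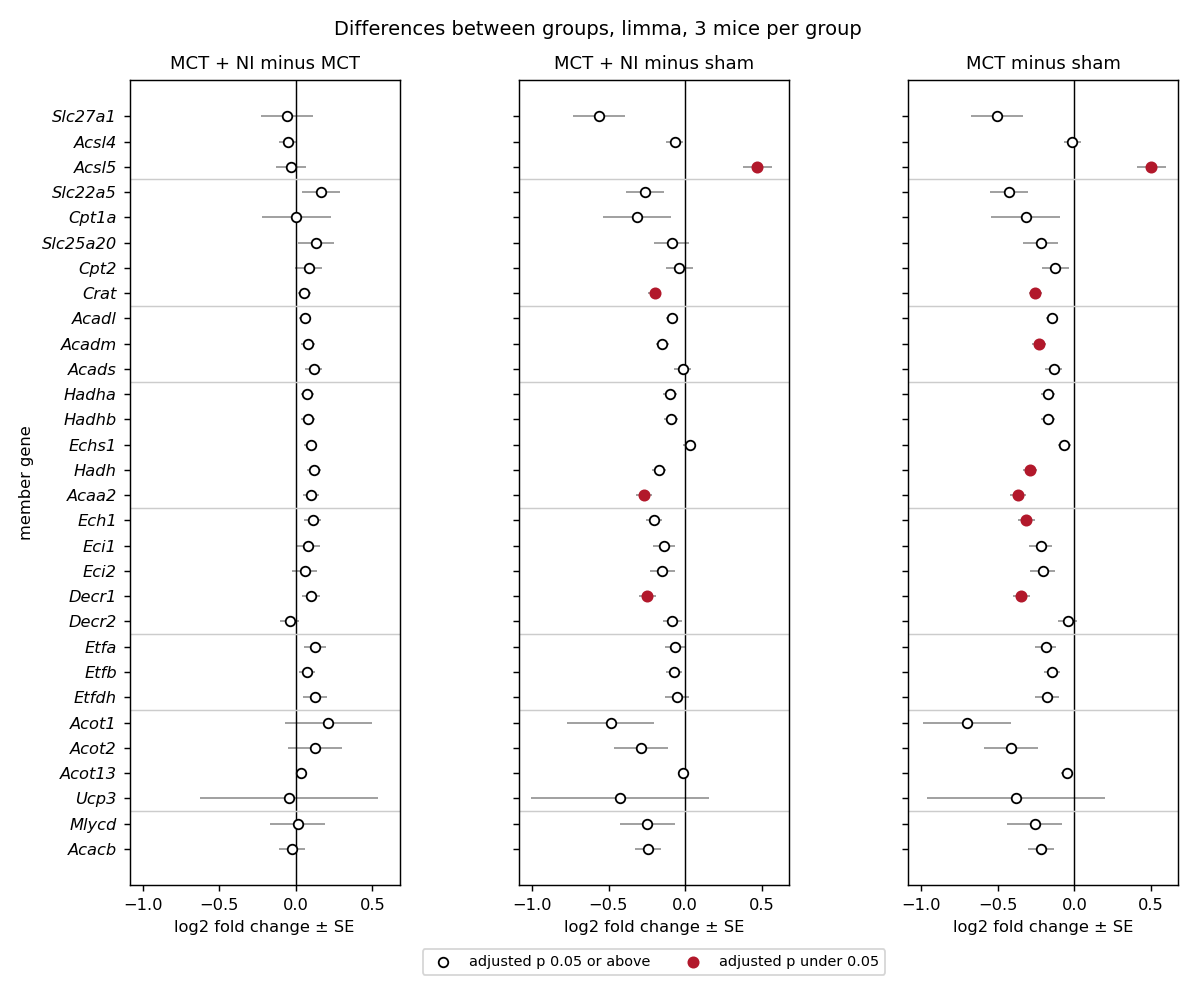
Log2 fold change (horizontal axis, bars ± SE from limma) of the 30 measured members by step, for MCT + NI minus MCT, MCT + NI minus sham and MCT minus sham, with 3 mice per group. Filled points have an adjusted p under 0.05: none on the left, 4 in the middle and 7 on the right. Most points lie a little above 0 on the left and below 0 in the other panels.

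The first step joins a fatty acid to coenzyme A. Acsl5, a long-chain acyl-CoA synthetase, had log2 values of 6.60, 6.47 and 6.81 in MCT + NI mice, 6.66, 6.64 and 6.66 in MCT mice, and 6.00, 6.18 and 6.28 in sham mice. All 6 mice given MCT lay above the 3 sham mice, and the MCT and MCT + NI values were mixed. Acsl5 rose by 0.47 ± 0.10 SE in MCT + NI (adjusted p = 0.0221 in limma) and by 0.50 ± 0.10 in MCT (adjusted p = 0.0161) against sham mice. In MCT mice this was a factor of 1.42. Its call between MCT and sham mice was lost without MCT mouse 640 (adjusted p = 0.0637), without MCT mouse 641 (0.0550) and with the atrial covariate (0.114), while the log2 fold change stayed between 0.49 and 0.51 in these fits. Its call in MCT + NI mice was lost without sham mouse 624 (0.49, adjusted p = 0.0647). Slc27a1, a fatty acid transport protein with synthetase activity, moved the other way: it was at 8.77, 8.97 and 8.93 in MCT + NI mice, 9.03, 9.02 and 8.79 in MCT mice and 9.80, 9.02 and 9.54 in sham mice. Sham mouse 624 lay among the MCT mice and the other sham mice lay above all of them. The log2 fold changes of Slc27a1 were -0.56 ± 0.17 in MCT + NI (adjusted p = 0.0968) and -0.51 ± 0.17 in MCT (0.135) against sham mice, and without mouse 624 they were -0.78 (0.00875) and -0.72 (0.0117). Acsl4, a synthetase that prefers arachidonic acid, ranged only from 6.58 to 6.73 over the 9 mice.

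In the carnitine shuttle all 5 measured members had a lower mean in both MCT groups than in sham mice, and 1 of them, Crat, fell. Crat, carnitine acetyltransferase, which passes acetyl groups between coenzyme A and carnitine, was at 10.47, 10.56 and 10.52 in MCT + NI mice, 10.48, 10.51 and 10.40 in MCT mice and 10.77, 10.66 and 10.73 in sham mice. Neither MCT group overlapped with sham. Crat fell by 0.20 ± 0.04 in MCT + NI (adjusted p = 0.0262) and by 0.26 ± 0.04 in MCT (adjusted p = 0.00805). Slc22a5, the plasma membrane carnitine transporter OCTN2, was at 6.64, 6.84 and 6.42 in MCT + NI mice, 6.54, 6.39 and 6.48 in MCT mice and 7.04, 6.65 and 6.99 in sham mice. The MCT mice lay below all sham mice, while MCT + NI mouse 617 lay above sham mouse 624 and mouse 615 was level with it. Its log2 fold change between MCT and sham mice was -0.43 ± 0.13 (adjusted p = 0.0888), and -0.55 (0.0399) without mouse 624.

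Cpt1a, the liver-type carnitine palmitoyltransferase 1 that is also expressed in heart, had values of 8.02, 8.59 and 8.24 in MCT + NI mice, 8.18, 8.47 and 8.19 in MCT mice and 8.91, 8.06 and 8.83 in sham mice. Sham mice 620 and 625 were the highest of the 9 and sham mouse 624 was lower than every MCT mouse. The log2 fold change was -0.32 ± 0.22 for MCT + NI (adjusted p = 0.498) and -0.32 ± 0.22 for MCT (0.488) against sham mice, and without mouse 624 it was -0.58 ± 0.16 (0.105) for MCT + NI and -0.59 ± 0.16 (0.0991) for MCT. Slc25a20, the carrier that exchanges acylcarnitine for carnitine across the inner membrane, was at 9.33, 9.58 and 9.44 in MCT + NI mice, 9.37, 9.40 and 9.18 in MCT mice and 9.74, 9.29 and 9.57 in sham mice, and the 3 groups overlapped. Its log2 fold change between MCT and sham mice was -0.22 ± 0.12 (adjusted p = 0.340), and -0.34 ± 0.10 (0.111) without mouse 624. For Cpt2, which returns the acyl group to coenzyme A inside the mitochondrion, it was -0.12 ± 0.09 (0.491) with all mice and -0.20 ± 0.08 (0.275) without mouse 624.

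The acyl-CoA dehydrogenases open each round of beta-oxidation and differ in the chain length they prefer. In all 3 that were measured, every MCT mouse lay below every sham mouse and below every MCT + NI mouse. Acadm, the medium-chain enzyme, was at 11.47, 11.53 and 11.50 in MCT + NI mice, 11.46, 11.47 and 11.34 in MCT mice and 11.72, 11.59 and 11.65 in sham mice. The gap between MCT + NI and MCT mice was narrow, and MCT mouse 644 was the lowest of all. Acadm fell by 0.23 ± 0.04 in MCT against sham mice (adjusted p = 0.0170), a factor of 0.852, and its log2 fold change in MCT + NI against sham mice was -0.15 ± 0.04 (0.0977). The call in MCT mice was lost without sham mouse 620 (log2 fold change -0.20, adjusted p = 0.0559) or 625 (-0.23, 0.0526). Acadl (long-chain) and Acads (short-chain) had log2 fold changes of -0.14 ± 0.04 (0.0619) and -0.14 ± 0.06 (0.218) between MCT and sham mice, and Acadl passed without sham mouse 624 (0.0464).

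The next reactions add water, oxidise the hydroxyl group and split off acetyl-CoA. Every MCT mouse lay below every sham mouse in all 5 genes of these reactions, and 2 of them fell. Acaa2, the mitochondrial 3-ketoacyl-CoA thiolase, had values of 11.18, 11.22 and 11.17 in MCT + NI mice, 11.07, 11.16 and 11.04 in MCT mice and 11.53, 11.34 and 11.50 in sham mice. The MCT + NI mice stood between the other groups without touching either. Of the members, Acaa2 had the smallest adjusted p against sham in both MCT groups: it fell by 0.27 ± 0.05 in MCT + NI (adjusted p = 0.0179) and by 0.37 ± 0.05 in MCT mice (0.00369), factors of 0.832 and 0.776. Hadh, the dehydrogenase for medium- and short-chain hydroxyacyl-CoA, was at 11.28, 11.39 and 11.29 in MCT + NI mice, 11.22, 11.24 and 11.15 in MCT mice and 11.57, 11.45 and 11.45 in sham mice. Here too the groups were separate, with MCT + NI between MCT and sham. Hadh fell by 0.29 ± 0.05 in MCT mice (adjusted p = 0.00664), and its log2 fold change in MCT + NI against sham mice was -0.17 ± 0.05 (0.0697). Hadha and Hadhb, the subunits of the trifunctional protein that acts on long chains, both had a log2 fold change of -0.17 between MCT and sham mice, with adjusted p of 0.0520 and 0.0610. A dimmer probe set of Hadhb gave -0.18. Without sham mouse 624 both passed, at -0.20 (0.0495) and -0.21 (0.0423). Echs1, the short-chain enoyl-CoA hydratase, was the only member other than Acsl5 whose mean in MCT + NI mice was above that in sham mice (0.03 ± 0.04).

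Unsaturated fatty acids need extra enzymes to move or reduce their double bonds. Of these 5 genes, 2 fell in MCT mice. Decr1, the mitochondrial 2,4-dienoyl-CoA reductase, was at 10.16, 10.17 and 10.03 in MCT + NI mice, 10.07, 10.05 and 9.95 in MCT mice and 10.43, 10.28 and 10.40 in sham mice. Both MCT groups lay below sham and overlapped with each other. Decr1 fell by 0.25 ± 0.06 in MCT + NI (adjusted p = 0.0336) and by 0.35 ± 0.06 in MCT mice (0.00709). Ech1, which shifts paired double bonds, was at 11.61, 11.70 and 11.53 in MCT + NI mice, 11.50, 11.53 and 11.48 in MCT mice and 11.89, 11.72 and 11.84 in sham mice. It was separate from sham in both MCT groups, but MCT + NI mouse 617 came close to sham mouse 624. Ech1 fell by 0.31 ± 0.05 in MCT mice (adjusted p = 0.00932), and with the atrial covariate its log2 fold change was -0.33 and no longer passed (0.0606). In MCT + NI against sham mice its log2 fold change was -0.20 ± 0.05 (0.0605), and -0.25 (0.0330) without sham mouse 624. The isomerases Eci1 and Eci2 had log2 fold changes of -0.22 ± 0.07 (0.138) and -0.21 ± 0.08 (0.201) between MCT and sham mice, and Decr2, the peroxisomal reductase, -0.05 ± 0.06 (0.747).

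**Figure D3:**
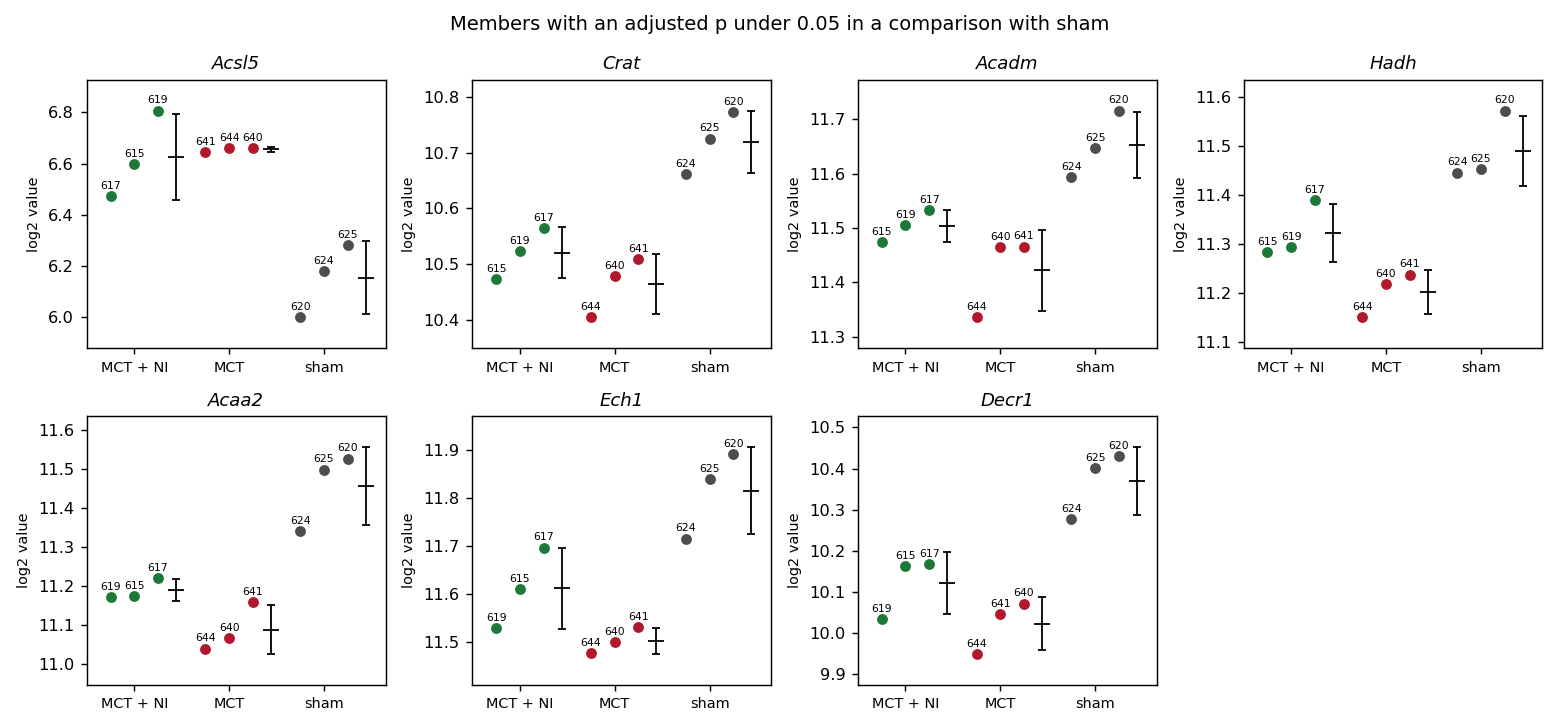
Log2 value (vertical axis) of the 7 members that rose or fell against sham mice, in MCT + NI, MCT and sham mice. Points are mice with their numbers, and the bar beside them is the mean ± SD of 3 mice. Acsl5 is higher and the other 6 are lower in both MCT groups than in every sham mouse, and in Acadm, Hadh and Acaa2 all MCT + NI mice lie between the MCT and the sham mice.

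Electrons from the dehydrogenases pass through the electron transfer flavoprotein (Etfa and Etfb) to its membrane oxidoreductase (Etfdh) and on to ubiquinone. None of these 3 rose or fell, and their log2 fold changes were alike, between -0.07 and -0.05 in MCT + NI and between -0.19 and -0.15 in MCT against sham mice. Etfdh was at 11.12, 11.17 and 11.13 in MCT + NI mice, 11.07, 11.03 and 10.94 in MCT mice and 11.27, 10.99 and 11.32 in sham mice. The MCT + NI mice lay above all MCT mice, and sham mouse 624 lay among the MCT mice. The log2 fold change of Etfdh was 0.13 ± 0.08 in MCT + NI against MCT mice and -0.18 ± 0.08 in MCT against sham mice (adjusted p = 0.246), and the difference between MCT and sham mice passed without mouse 624 (-0.28, 0.0135).

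Thioesterases release fatty acids from coenzyme A, and Ucp3 is an uncoupling protein of muscle mitochondria whose expression follows the supply of fatty acids. None of the 4 rose or fell over all 9 mice, although Acot1 had the largest difference of the members between MCT and sham mice. Acot2, a mitochondrial thioesterase, was at 11.32, 11.27 and 11.27 in MCT + NI mice, 11.29, 11.13 and 11.07 in MCT mice and 11.88, 11.07 and 11.78 in sham mice. Sham mice 620 and 625 stood far above the other 7 mice, and sham mouse 624 was level with MCT mouse 644. Its log2 fold change between MCT and sham mice was -0.42 ± 0.18 (adjusted p = 0.240), and without mouse 624 it was -0.67 ± 0.06 (0.00245), with -0.54 (0.00574) between MCT + NI and sham mice. Acot1, its cytosolic relative, was at 5.54, 5.69 and 5.30 in MCT + NI mice, 5.52, 4.90 and 5.46 in MCT mice and 6.47, 5.31 and 6.21 in sham mice. As for Acot2, sham mice 620 and 625 were the highest of the 9. The sequences of Acot1 and Acot2 are nearly identical, so their probe sets may detect each other's transcript. The log2 fold change of Acot1 between MCT and sham mice was -0.70 ± 0.29 (0.218) and -1.04 ± 0.20 (0.0329) without mouse 624.

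Ucp3 varied most between mice. It was at 6.84, 8.09 and 7.70 in MCT + NI mice, 7.58, 7.99 and 7.19 in MCT mice and 8.74, 6.48 and 8.69 in sham mice. The highest 2 and the lowest of the 9 mice were all sham. The log2 fold changes were -0.43 ± 0.58 in MCT + NI (adjusted p = 0.740) and -0.38 ± 0.58 in MCT (0.772) against sham mice. Without mouse 624 they were -1.17 ± 0.35 (0.140) in MCT + NI and -1.12 ± 0.35 (0.149) in MCT mice, and without sham mouse 620 the difference between MCT and sham mice was 0.0033. Acot13 ranged from 10.59 to 10.71 over the 9 mice. Of the genes that set the level of malonyl-CoA, the inhibitor of carnitine palmitoyltransferase 1, Mlycd (which breaks it down) and Acacb (which makes it) both had lower means against sham, with log2 fold changes of -0.25 ± 0.18 (0.510) and -0.24 ± 0.09 (0.157) in MCT + NI and -0.26 ± 0.18 (0.482) and -0.22 ± 0.09 (0.196) in MCT mice. Without sham mouse 624 the log2 fold change of Mlycd was -0.48 ± 0.11 (0.0588) in MCT + NI and -0.49 ± 0.11 (0.0513) in MCT mice.

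The members in which sham mouse 624 differed most from the other sham mice were Ucp3, Acot1, Cpt1a, Acot2, Mlycd and Slc27a1. The difference of its log2 value from the mean of sham mice 620 and 625 was -2.23 in Ucp3, -1.03 in Acot1, -0.80 in Cpt1a, -0.76 in Acot2, -0.69 in Mlycd and -0.65 in Slc27a1, and between -0.37 and -0.014 in 22 others. Acsl4 and Acsl5 were not lower in it. It lay below the highest MCT mouse in 13 of the 30 members, where mouse 620 did so in 3 and mouse 625 in 2. Pdk4, the kinase that shuts off pyruvate dehydrogenase and a known PPAR target, is no member and was chosen after its values were seen. It had 10.06, 9.53 and 9.87 in MCT + NI mice, 10.50, 9.49 and 9.71 in MCT mice and 10.58, 8.71 and 11.10 in sham mice, so that mouse 624 was again the lowest of all 9. The mean log2 value of 6 white adipocyte markers was also low in this mouse: it was 4.19, 3.44 and 3.52 in MCT + NI mice, 3.39, 3.55 and 4.09 in MCT mice and 4.23, 3.38 and 4.03 in sham mice, with Adipoq at 3.02 to 4.57 in the 9 mice, below the array medians. Ucp1, which defines brown adipocytes, was at 3.31 to 3.81. The part of adipose tissue and of the state of this animal in its values was not tested.

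**Figure D4:**
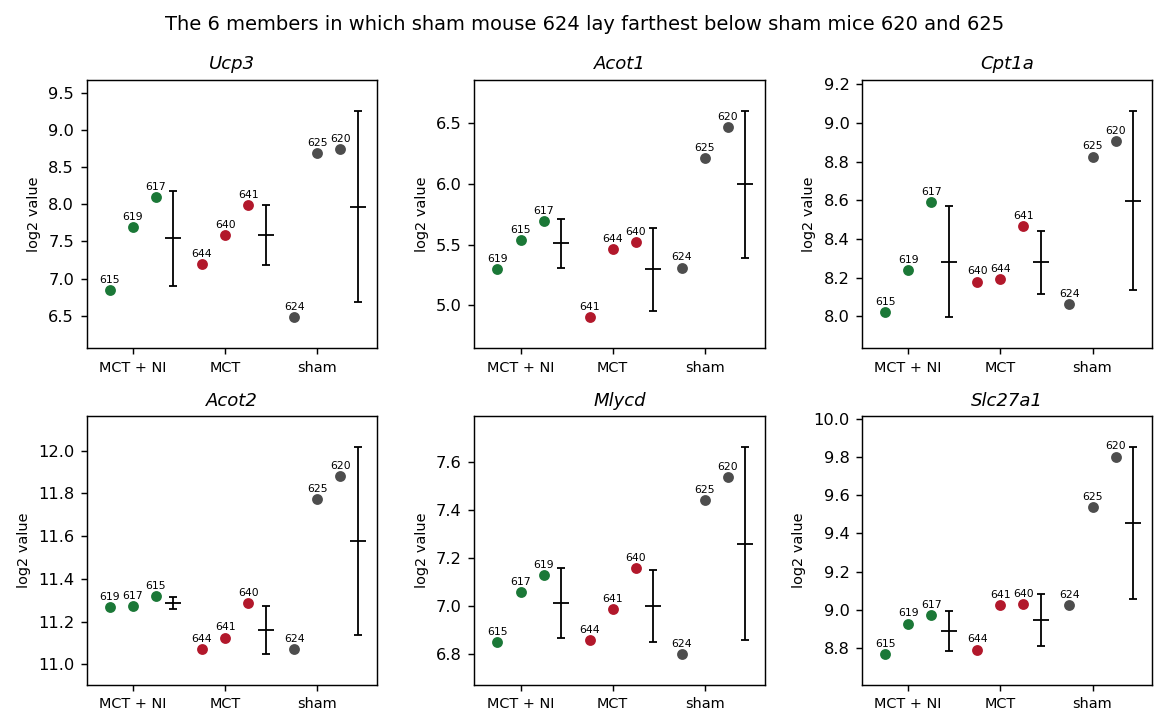
Log2 value (vertical axis) of the 6 members in which sham mouse 624 lay farthest below sham mice 620 and 625, in MCT + NI, MCT and sham mice. Points are mice with their numbers, and the bar is the mean ± SD of 3 mice. In each panel sham mice 620 and 625 are the highest of the 9 and sham mouse 624 lies within or below the range of the MCT and MCT + NI mice.

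Without sham mouse 624, 14 members fell in MCT against the remaining sham mice and 1 rose. In that fit 1.01% of all genes fell and 3.4% rose, and of the 534 genes 36 fell and 41 rose. The 8 members gained were Slc27a1, Slc22a5, Acadl, Hadha, Hadhb, Etfdh, Acot1 and Acot2. None of the 7 earlier calls was lost, and the median of the members was -0.28. Mouse 624 was picked out by its low values in the members, so such gains follow in part from that choice. Without sham mouse 620, 5 members fell and 1 rose, where 1.38% and 3.69% of all genes did, and without sham mouse 625 the same numbers of members did, where 1.05% and 4.04% of all genes did. With the atrial covariate 5 members fell and none rose, where 0.489% and 2.12% of all genes did, and the median was -0.32. This covariate followed the groups closely, at 10.09 to 10.90 in sham mice. Among the mice given MCT only 644 (10.53) and 615 (9.09) came near that, so the adjusted difference rests largely on these mice. When the mouse with the most atrial transcript was left out of each MCT group (644 of MCT and 615 of MCT + NI), Crat, Hadh, Acaa2 and Decr1 fell and no other member passed, where 1.33% of all genes fell and 3.38% rose. Mouse 644 was the lowest MCT mouse in 20 of the 30 members, against 32.9% of all genes and 39.9% of the 534, and mouse 615 the lowest MCT + NI mouse in 20 of 30, against 28.2% and 41.6%.

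**Figure D5:**
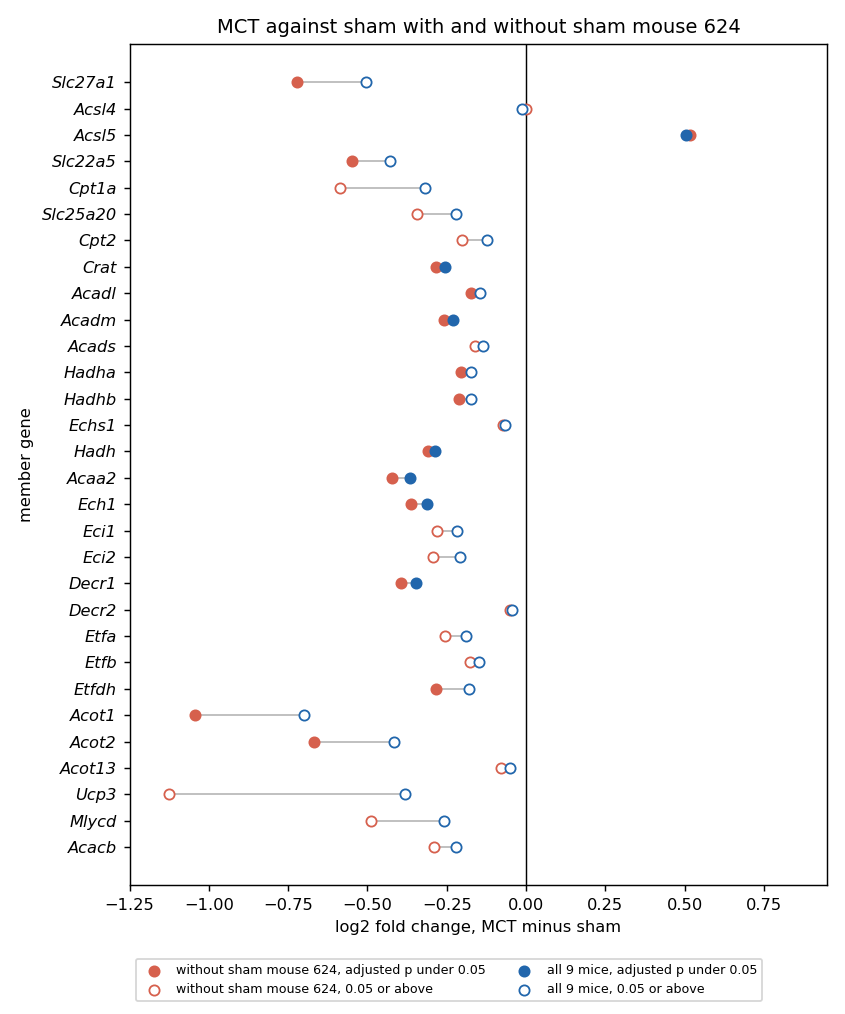
Log2 fold change of MCT minus sham (horizontal axis) of the 30 measured members, by step, with sham mouse 624 left out (red) and with all 9 mice (blue). Filled points have an adjusted p under 0.05, 15 of the red and 7 of the blue. The shift is largest in Ucp3, Acot1, Cpt1a and Acot2 and small in the dehydrogenases.

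The promoters of the members were read for the letters that nuclear receptors bind, since PPARα and the estrogen-related receptors are known regulators of the pathway. RefSeq promoters of build GRCm38.p6, from 250 bases before to 50 bases after the start, were found for 26 of the 30 members (28 promoters). The half-site AGGTCA, on either strand, was in 5 of the 28 (17.9%), those of Acacb, Acadm, Cpt1a, Echs1 and Ucp3, and in 16.3% of all 32851 promoters. The direct repeat of this half-site with 1 base between, known as DR1, and the extended half-site TCAAGGTCA, which contains AGGTCA, were in none of the 28, and in 0.0396% and 0.423% of all. No match says only that these letters are not in this window. The promoters of a dehydrogenase that fell and of the 2 half-site members with the greatest shift in sham mouse 624 are shown, with AGGTCA, or TGACCT where it lies on the other strand, in capitals. Acadm (chr3:153944594-153944893, minus strand) has it at position -249 from the start, Cpt1a (chr19:3323051-3323350, plus strand) at -94, and Ucp3 (chr7:100472741-100473040, plus strand) at -149 and -44.
Acadm: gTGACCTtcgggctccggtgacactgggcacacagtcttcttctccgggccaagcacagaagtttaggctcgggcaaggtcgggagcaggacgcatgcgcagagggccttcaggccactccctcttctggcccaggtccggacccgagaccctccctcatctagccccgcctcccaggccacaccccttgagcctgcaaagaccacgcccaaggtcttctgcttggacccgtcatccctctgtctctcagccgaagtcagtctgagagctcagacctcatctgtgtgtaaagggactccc
Cpt1a: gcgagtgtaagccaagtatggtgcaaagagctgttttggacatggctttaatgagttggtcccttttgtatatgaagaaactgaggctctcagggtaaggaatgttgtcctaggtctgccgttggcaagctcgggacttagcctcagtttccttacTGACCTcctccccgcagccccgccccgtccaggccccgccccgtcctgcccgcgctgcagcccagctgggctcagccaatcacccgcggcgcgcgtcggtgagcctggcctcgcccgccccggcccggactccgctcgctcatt
Ucp3: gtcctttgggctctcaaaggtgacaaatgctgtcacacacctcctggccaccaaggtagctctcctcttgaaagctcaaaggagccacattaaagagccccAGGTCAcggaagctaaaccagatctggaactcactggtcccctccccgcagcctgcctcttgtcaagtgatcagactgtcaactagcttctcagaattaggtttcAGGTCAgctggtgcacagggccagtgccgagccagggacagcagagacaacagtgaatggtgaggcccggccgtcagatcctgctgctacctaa

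Related genes from lists of the same tissue chemistry were read beside the members. Of 54 measured further genes of fatty acid oxidation, including other synthetases and peroxisomal enzymes, 1 rose and 1 fell between MCT and sham mice. Of all genes 4.65% rose and 1.61% fell. Cpt1c, a carnitine palmitoyltransferase 1 isoform known chiefly from brain, had values of 6.40, 6.45 and 6.32 in MCT + NI mice, 6.39, 6.39 and 6.25 in MCT mice and 5.04, 5.12 and 5.51 in sham mice, with all MCT-treated mice far above the sham mice. It rose by 1.12 ± 0.12 in MCT mice (adjusted p = 0.000734). Acss1, the mitochondrial acetyl-CoA synthetase, was at 10.43, 10.55 and 10.50 in MCT + NI mice, 10.52, 10.57 and 10.42 in MCT mice and 11.04, 10.69 and 10.87 in sham mice, and fell by 0.37 ± 0.08 in MCT mice (adjusted p = 0.0302). None of the 14 measured PPAR targets outside the members rose or fell. Their smallest adjusted p was 0.116 (Pnpla2, the adipose triglyceride lipase), 3 were lower and none was higher at an unadjusted p under 0.05, and the median log2 fold change was -0.05. Without sham mouse 624 their median was -0.14, and 6 were lower at an unadjusted p under 0.05, where 7.68% of all genes were. In that fit 2 fell: Pnpla2 (-0.36, adjusted p = 0.0236) and Plin5, a lipid droplet protein (-0.30, 0.0462). Of all genes 1.01% fell there, and of the 534 genes 36.

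Among 25 measured nuclear regulators of the pathway 4 fell and 1 rose between MCT and sham mice, where 1.61% and 4.65% of all genes did. Esrrg and Esrrb, estrogen-related receptors, fell by 0.37 ± 0.09 (adjusted p = 0.0452) and by 0.27 ± 0.06 (0.0358), and Esrrg fell in MCT + NI against sham mice too (-0.42, 0.0254). Prkaa2, the catalytic subunit of AMP-activated protein kinase found in muscle, fell by 0.30 ± 0.05 (0.0109) and also fell in MCT + NI mice (-0.23, 0.0347). Hdac3, a histone deacetylase, fell by 0.17 ± 0.04 (0.0446), and Pprc1, a coactivator of the PGC-1 family, rose by 0.31 ± 0.06 (0.0246). Without sham mouse 624 the calls of Esrrg (-0.37, 0.119) and Hdac3 (-0.16, 0.121) in MCT mice were lost, as were those of Esrrg (-0.42, 0.0817) and Prkaa2 (-0.20, 0.118) in MCT + NI mice. All 27 measured genes of pyruvate dehydrogenase and the tricarboxylic acid cycle had a log2 fold change below 0 between MCT and sham mice. Of these, 5 fell, and the median was -0.12. The list includes Pdk1, Pdk2 and Pdk3, kinases that shut off pyruvate dehydrogenase, so not all 27 are enzymes of the pathway. Pdk2 had the smallest adjusted p of the 5 (-0.26, 0.00436 in limma). Of all genes 55.1% were below 0 and 1.61% fell. Of the 534 genes at or above the median level of the members 63.7% were below 0 and 8.24% fell. Without sham mouse 624 all 27 were again below 0 and the median was -0.13. The 2 that fell were Pdk2 (-0.24, adjusted p = 0.0207 in limma) and Pdhb (-0.19, 0.0482). In that fit 1.01% of all genes and 36 of the 534 fell. The calls of Idh3g (adjusted p = 0.0923 in limma), Suclg1 (0.0513) and Mdh2 (0.0675) were lost. Of 19 measured genes of glycolysis and glucose transport 2 rose and none fell, and the median was 0.01. Of all genes 4.65% rose, and of the 534 genes 8.05% did. Ldha, a lactate dehydrogenase subunit, rose by 0.18 ± 0.03 (adjusted p = 0.00918) and Pfkp, a phosphofructokinase isoform, by 0.74 ± 0.16 (0.0312), the call of Pfkp being lost without sham mouse 624 (0.78, 0.0775). Between MCT + NI and MCT mice none of these genes rose or fell.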

How the data were processed

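Right ventricular RNA of 9 mice (100 ng each) was hybridised to Affymetrix mouse gene 1.1 ST arrays. The authors computed the deposited log2 values by RMA (no version is given in the methods or in the submitters' notes). RMA corrects the background and makes the arrays' distributions alike, which narrows differences shared by most genes. The deposited table has the 35556 probe sets of the manufacturer, not the Entrez-based ones of the methods. The methods name trizol and the WT plus kit, and the labels the RNeasy Micro kit and the Sense Target assay. The deposited values were used with no further normalization. The platform annotation gave 1 gene to 21218 probe sets, several to 1881 and none to 12457. Only the first kind was used, with the brightest per gene, leaving 18820 genes. In 12042 of these, at least 2 mice share 1 value.

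Group means of the 9 mice were fitted together in limma 3.58.1 (R 4.3.3), the empirical Bayes prior following intensity as in the methods. The p-values are two-sided. Each mouse is a separate animal, and precision is limited by having 3 arrays a group. The procedure was tested on simulated data. Named with values in every mouse were the members that passed in any comparison, the 5 with the largest difference in each comparison, and Cpt1a. In other lists up to 5 genes with the smallest p between MCT and sham mice were named, and Adipoq and Ucp1 as adipocyte markers. Plin5 was named because it passed without sham mouse 624. Pdk4, Plin5 and the promoters printed were chosen after values had been seen. Members, lists and rules were chosen with earlier results of these data known, so no test over the members was made. Alternatives were other variance priors, averaged probe sets, a filter on dim genes, all probe sets, quantile normalization, median centring, fits of 2 groups, array weights, the atrial covariate, each mouse left out in turn, and MCT mouse 644 and MCT + NI mouse 615 left out together.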

Additional observations from a re-analysis of the deposited data

How the results depend on the processing

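For MCT against sham, 7 members passed with all mice. The count was 4 without MCT mouse 644 and MCT + NI mouse 615 together, and ran from 6 to 15 with each mouse left out in turn, the 15 being without sham mouse 624. The median log2 fold change of the members was -0.22, reached -0.32 with the atrial covariate and ran from -0.28 to -0.14 with each mouse left out. For MCT + NI against MCT the count was 0 in every alternative run, and the median of 0.08 ran from 0.04 to 0.11 with each mouse left out. For MCT + NI against sham 4 members passed. The count was 1 without the intensity trend or with only the 2 groups in the fit, 2 with all probe sets or the atrial covariate, 0 without mice 644 and 615 together, and ran from 0 to 6 with each mouse left out. The median of -0.14 ran from -0.19 to -0.07. Some directions turned. With each mouse left out, Ucp3 for MCT against sham ran from -1.12 to 0.0033, the highest being without sham mouse 620. For MCT + NI against MCT, Cpt1a ran from -0.15 to 0.14, Ucp3 from -0.32 to 0.31, Slc27a1 from -0.14 to 0.0012 and Acsl5 from -0.12 to 0.046. For MCT + NI against sham, Slc25a20 ran from -0.21 to 0.016 and Etfdh from -0.15 to 0.011, the highest being without sham mice 620 and 625. Cpt1a for MCT + NI against MCT was also -0.0019 with quantile normalization, -0.033 with array weights and -0.014 with the atrial covariate, and Ucp3 was 0.11 without mice 644 and 615. The cause was not tested, though fits with fewer mice also have less power. Of the values of single named members under the alternatives, 283 for MCT against sham, 289 for MCT + NI against MCT and 257 for MCT + NI against sham kept their direction and their side of the threshold, while 11, 0 and 32 no longer passed and 5, 0 and 9 newly passed. Part of these counts was fixed in advance. Leaving out a mouse of the third group cannot change a log2 fold change, and averaging probe sets cannot either, since no named member had several. For MCT + NI against MCT no member came near the threshold, so only directions could turn. No paired analysis was possible because the mouse numbers are not shared between groups. With 3 mice per group, a member that did not pass is not shown to be unchanged.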
